A study of Mus musculus with 23 samples.

Results

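The genes described here encode 25 integrin subunits (17 alpha and 8 beta) and 10 laminin chains of the mouse. These 35 genes were taken from a fixed list by name, out of 35523 genes in the gene table. The rule itself used no measured value, but the list was drawn up with earlier results of these data known. Estimated read counts were summed over their 191 transcripts in each library. At a mean of 1 TPM or more, 28 of the 35 genes were present in at least one of the cell fractions. TPM, a length-corrected share of the transcripts of a library, is the scale used below to compare one gene with another.

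Integrins are cell surface receptors made of one alpha and one beta subunit, and the pair decides which matrix protein is bound. The beta1 subunit, Itgb1, pairs with many alpha subunits, whereas Itgb4 pairs with Itga6 alone in hemidesmosomes, the anchors of epithelial cells on basement membrane, and Itgb6 pairs with Itgav alone. Laminins are secreted trimers of one alpha, one beta and one gamma chain, and they form the sheet of the basement membrane that many integrins bind. In the pancreas, basement membrane lies under the epithelium, and stellate cells add collagen and fibronectin to the matrix around a tumour.

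The study measured mRNA in pancreatic stellate cells (PSCs) and pancreatic tumour organoids that had shared a Matrigel gel for 3.5 days before a flow sort split them. The PSCs used were Egfr wild type (WT, the lines labelled Rosa) or Egfr knockout (KO), and the labels describe no edit in the organoids. The PSC fraction held 12 libraries (4 WT, 8 KO) and the organoid fraction 11 (4 grown with WT PSCs, 7 with KO PSCs). The co-cultures were the organoid lines T6-LOH, T12-LOH and T69A with the PSC parent PSC4, which gave the lines Rosa, A3 and B4, and T6-LOH with the parent PSC5, which gave Rosa, C5 and D4. Each pairing has 1 library per fraction, and the organoid library of T69A with A3 was not analysed here. The labels do not say whether libraries came from separate cultures, nor which marker drove the sort, nor the driver mutations of the organoids, so p-values measure the spread between these libraries. The 8 KO PSC libraries came from only 4 KO lines, 2 per parent, so a line's own level and the genotype are hard to separate.

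Library depth lay between 21823084 and 34828131 estimated counts, and the 35 genes took 0.306 to 0.547% of the counts of a library. Egfr mRNA was lower than in the matching WT library in 8 of 8 KO PSC libraries. Markers fitted the labels of both fractions. In PSC libraries, 9 fibroblast markers summed to 2032 to 6073 TPM and 9 epithelial markers to 30.6 to 167.9 TPM, and in organoid libraries the sums were 0.391 to 7.75 and 10830 to 14810 TPM. Epithelial markers in PSC libraries stood at 0.0639 to 0.926% of their organoid level, with the 3 T69A co-cultures highest (0.837, 0.558 and 0.926% for Rosa, A3 and B4). Fibroblast markers in organoid libraries stood at 0 to 0.164% of their PSC level. These were bulk libraries, so fewer cells of a type and less RNA per cell cannot be told apart.

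The PSCs and the organoids differed in the levels of many matrix receptors and laminin chains. Of the 29 members tested between the fractions, 18 were higher in PSCs and 10 were higher in organoids (edgeR quasi-likelihood test, Benjamini-Hochberg adjustment over all genes), and Itgb2 did not pass (adjusted p = 0.07431, against 0.04827 by DESeq2). Among all genes tested 81.9% passed (41.6% higher and 40.3% lower in PSCs), so passing the test is common here, and the description rests on levels and on which members lay where. Of the 28 members at 1 TPM or more in either fraction, 18 had levels that did not overlap between the PSC and organoid libraries. By mean level, 16 of the 28 reached 1 TPM in both fractions, 9 in PSCs only and 3 (Itgb4, Itgb6 and Lamb3) in organoids only. The same shares over all genes were not taken, so these counts only describe the members and do not set them apart from other genes.

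**Figure D1:**
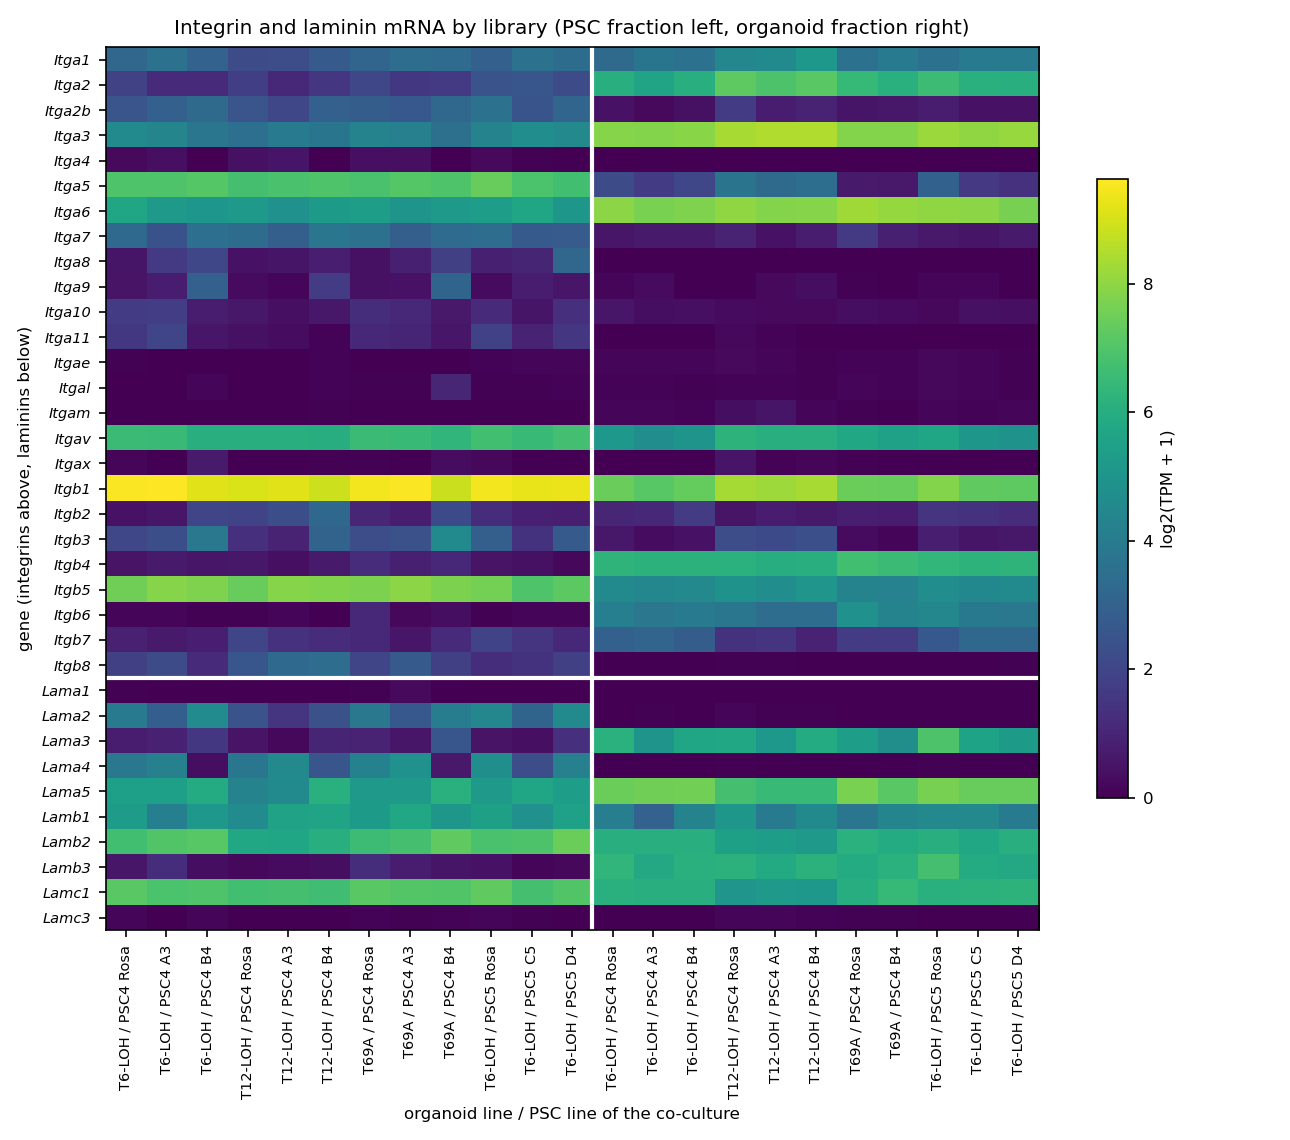
Levels of the 35 genes in the 23 libraries, as log2(TPM + 1). Rows are genes, columns are libraries named by organoid line and PSC line, and the white lines separate PSC from organoid libraries and integrins from laminins. Itgb1 is the brightest row among PSCs (456 to 788 TPM). Itga3 and Itga6 have the highest means among organoids (226 to 353 and 202 to 308 TPM), although Itgb1 exceeds Itga6 in some T12-LOH libraries.

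Itgb1, the common beta subunit, was the most abundant member in PSCs, with a lowest level of 456, a median of 640 and a highest of 788 TPM. In organoids it spanned 139, 173 and 331 TPM in the same order. The ranges did not overlap, and the log2 difference of PSCs over organoids was 1.45 (SE 0.0998, adjusted p = 6.559e-10 by edgeR).

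The laminin-binding alpha subunits dominated the organoids. Itga3, whose product with beta1 binds laminins of epithelial basement membrane, spanned 226 to 353 TPM in organoids (median 262) and 10.5 to 25.6 in PSCs (median 18.2). Itga6, which pairs with either beta1 or beta4, spanned 202 to 308 TPM in organoids (median 246) and 28.1 to 50.9 in PSCs (median 36.0). Both genes had separate ranges in the fractions, with log2 differences of -4.16 (SE 0.143, adjusted p = 6.038e-14 by edgeR) and -2.98 (SE 0.0866, adjusted p = 6.172e-15) for PSCs over organoids. Itga7, the laminin receptor subunit best known from muscle, went the other way, at 4.31 to 12.7 TPM in PSCs and 0.370 to 2.13 in organoids (log2 difference 3.36, SE 0.188). Summed in TPM, Itga3, Itga6 and Itga7 made up 83.1% ± 4.12 (SD, n = 11) of the alpha partners of beta1 in organoids and 30.8% ± 3.84 (SD, n = 12) in PSCs. Of the Itga6 TPM counted here, the non-coding transcript Itga6-203 held a median of 45.8% in organoids and 43.7% in PSCs, by model estimates. The Itga6 levels therefore exceed those of its coding mRNA.

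Itgb4, the hemidesmosome subunit, spanned 62.5 to 104 TPM in organoids (median 74.4) and 0.141 to 1.32 in PSCs (median 0.526). Its mean in PSCs was 0.772% of its mean in organoids, a share inside the 0.0639 to 0.926% at which the epithelial markers stood. The PSC libraries with the highest Itgb4 were those of T69A (1.32, 0.814 and 1.09 TPM), which also had the highest epithelial marker shares. How much of the PSC reads of Itgb4 came from organoid cells was not tested. Of its hemidesmosome partners, Plec, the linker to keratin filaments, did not differ beyond the error (log2 difference -0.00, adjusted p = 0.98), while Col17a1, a transmembrane collagen of the same structure, was higher in PSCs by 2.56 (SE 0.322, adjusted p = 1.369e-06 by edgeR). Of the 4 partners listed (Plec, Dst, Cd151 and Col17a1), only 3 had a mean of 1 TPM or more, in PSCs as in organoids. Col17a1 was too low to be tested in the organoid fit.

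Among receptors for the RGD sequence of fibronectin and related proteins, Itga5, the alpha subunit of the main fibronectin receptor, spanned 104 to 167 TPM in PSCs (median 125) and 0.560 to 11.9 in organoids (median 3.12). It made up 61.2% ± 4.60 (SD, n = 12) of the alpha partners of beta1 in PSCs and 0.694% ± 0.513 (SD, n = 11) in organoids. Its log2 difference was 5.15 (SE 0.177, adjusted p = 5.836e-14 by edgeR), and no organoid library came near a PSC library.

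Itgav, which pairs with beta1, beta3, beta5, beta6 and beta8, spanned 62.8 to 107 TPM in PSCs and 25.6 to 74.0 in organoids, with overlapping ranges. Its PSC and organoid means differed by a log2 value of 0.72 (SE 0.0716, adjusted p = 7.909e-08 by edgeR), a call that was lost when only WT libraries were used, as were those of Itgb3, Itgb7, Lamb1 and Lamb2. The beta partners of Itgav were split more sharply than Itgav itself. Itgb5, a vitronectin receptor subunit, spanned 123 to 248 TPM in PSCs (median 212) and 18.3 to 31.5 in organoids (median 22.9). Itgb8, an activator of latent TGF-beta, spanned 1.21 to 9.81 TPM in PSCs and 0 to 0.0486 in organoids, with 24 counts over all 11 organoid libraries. Itgb6, the epithelial activator of latent TGF-beta, spanned 9.84 to 28.4 TPM in organoids (median 14.0) and 0 to 1.16 in PSCs (median 0.0871). Of the Itgb3, Itgb5, Itgb6 and Itgb8 TPM together, Itgb5 held 95.2% ± 2.32 (SD, n = 12) in PSCs. In organoids Itgb5 held 58.2% ± 8.27 and Itgb6 38.7% ± 11.1 (SD, n = 11).

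Of the collagen-binding alpha subunits, Itga2 was an organoid gene at 48.2 to 151 TPM (median 68.3), against 1.17 to 4.94 in PSCs (median 2.26). Itga1 spanned 9.11 to 33.8 TPM in organoids and 3.65 to 11.5 in PSCs, with overlap and a log2 difference of -1.10 (SE 0.0875, adjusted p = 4.092e-09 by edgeR). Itga11, the fibroblast subunit for fibrillar collagen, and Itga10 were low PSC genes, at 0.0550 to 3.03 and 0.316 to 2.33 TPM. Itga11 had 24 counts over the 11 organoid libraries, 6 of which were at 0.

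The remaining alpha subunits were low. Itga8, the nephronectin receptor subunit, had 0 counts in all 11 organoid libraries, which allows at most 0.0866 to 0.126 CPM (counts scaled to library depth, with no length correction) by a floor of 3 counts per library, for counting error only. In PSCs it spanned 0.945 to 24.4 CPM, or 0.357 to 7.98 TPM. Itga9, whose product binds tenascin-C, spanned 0.139 to 7.64 TPM in PSCs and Itga4, a receptor subunit for VCAM-1 and fibronectin, stayed under 0.473 TPM in every library.

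Subunits best known from blood cells were mostly near 0. Itgae, Itgal, Itgam and Itgax had mean levels of at most 0.130 TPM in either fraction and did not pass the filter on low counts of any edgeR fit. Among them only Itgal reached 1 TPM, in 1 library (1.07 TPM, line B4 with T69A). DESeq2, which was run without that filter, called Itgae and Itgam lower in PSCs than in organoids (adjusted p = 0.0006331 and 5.111e-08) and Itgal higher in B4 than in Rosa (adjusted p = 0.006475), at these levels near 0. Itgb2, the shared leukocyte beta subunit, spanned 0.377 to 8.16 TPM in PSCs and 0.407 to 2.27 in organoids. Ptprc and Adgre1, 2 defining immune markers, were at 0 in all 12 PSC libraries, and the 8 immune markers summed to 1.13 to 2.89 TPM there, with Csf1r the only one at a mean of 1 TPM or more. Itga2b, the platelet subunit, was listed at 3.12 to 11.5 TPM in PSCs, but its full-length transcript held a median of only 26.7% of that level and short non-coding transcripts held most of the rest. Of the 4 platelet markers, Pf4 and Gp9 had means under 0.483 TPM in PSCs, while Gp1bb spanned 1.47 to 4.53 TPM and Ppbp, a chemokine, 0.323 to 14.5 TPM. In organoids Ppbp spanned 119.8 to 238.1 TPM. The part of platelet RNA in the Itga2b level was not tested. Itgb7 spanned 0.955 to 8.51 TPM in organoids and 0.486 to 3.0 in PSCs, while its alpha partners Itga4 and Itgae were near 0.

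The laminin alpha chains split by fraction as well. Lama5, the broadly made epithelial and vascular alpha chain, was the most abundant in both, at 87.9 to 206 TPM in organoids (median 164) and 19.0 to 68.9 in PSCs (median 41.8), with no overlap. Lama3, the alpha chain of the anchoring laminin of epithelia, spanned 26.2 to 122 TPM in organoids (median 47.1) and 0.155 to 5.03 in PSCs (median 0.768). Lama2 and Lama4, chains of muscle, nerve and vessel laminins that fibroblasts also make, spanned 1.71 to 24.3 and 0.290 to 28.5 TPM in PSCs. In the 11 organoid libraries together Lama2 had 25 counts and Lama4 had 11, and their means there were 0.247 and 0.0626% of the PSC means. Lama1, the chief alpha chain of Matrigel itself, had 11 counts over all PSC libraries and 0 over all organoid libraries.

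Lama3 also differed in transcript between the fractions, as a description with no test. In organoids the shorter transcript Lama3-202 (5551 bases) held a median of 96.1% of the Lama3 TPM and the longer Lama3-201 (10548 bases) 3.93%. In PSCs they held 42.1 and 57.9%. Transcript shares are model estimates, and those in PSCs rest on a low level (1668 estimated counts over 12 libraries, against 63046 over the 11 organoid libraries).

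Of the beta chains, Lamb3, the partner of Lama3, spanned 54.8 to 110 TPM in organoids (median 68.3) and 0.116 to 1.40 in PSCs (median 0.336). The PSC mean was 0.73% of the organoid mean, again within the range of the epithelial marker shares. Lamb2 and Lamb1 were higher in PSCs by log2 differences of 0.52 (SE 0.0779, adjusted p = 1.095e-05 by edgeR) and 0.76 (SE 0.236, adjusted p = 0.007432), with overlapping ranges for each. Lamb2 held 72.7% ± 10.6 (SD, n = 12) of the beta chain TPM in PSCs, and Lamb3 held 47.5% ± 5.13 (SD, n = 11) in organoids. The gamma chain Lamc1, a part of most laminins, spanned 101 to 154 TPM in PSCs and 31.2 to 86.8 in organoids, and Lamc3 stayed under 0.129 TPM.

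**Figure D2:**
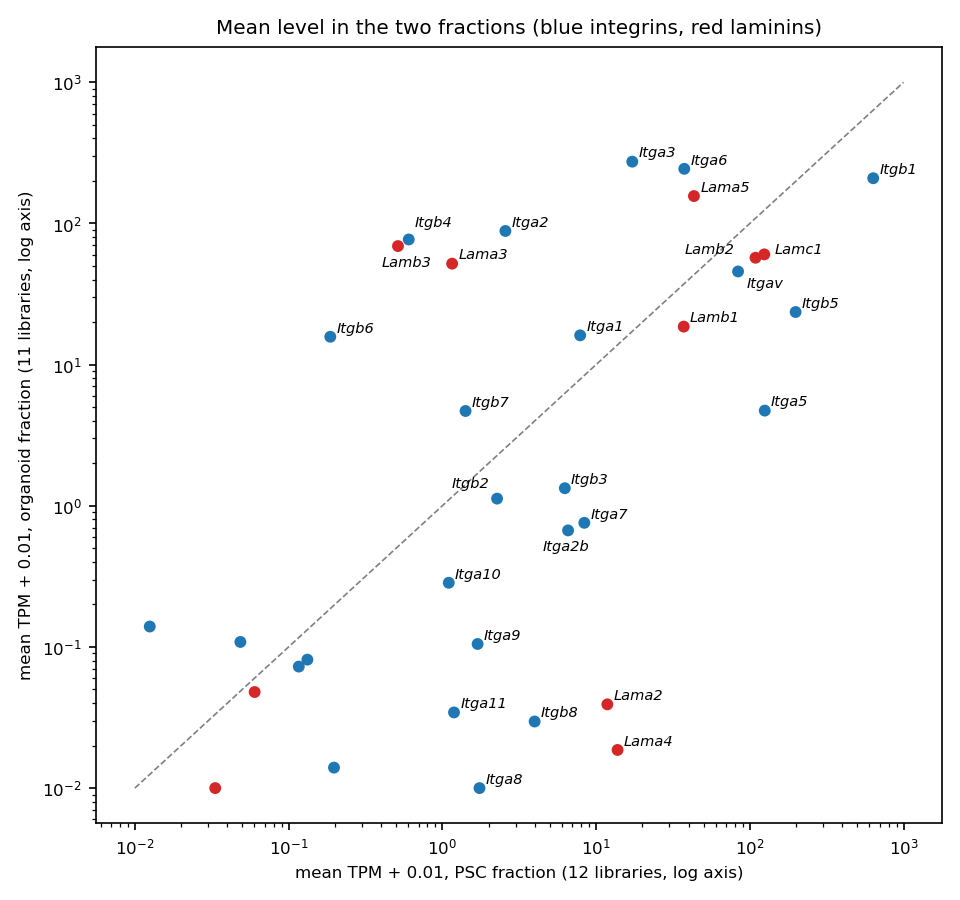
Mean TPM + 0.01 of each gene in the PSC fraction (x, 12 libraries) and the organoid fraction (y, 11 libraries), both on log axes, with integrins in blue and laminins in red and the line of equal levels dashed. Names are given for genes with a mean of 1 TPM or more in either fraction. Itgb4, Lamb3, Itgb6, Itga2 and Lama3 lie far above the line, and Lama4, Lama2, Itgb8, Itga8 and Itga5 far below it.

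The other pathway lists are given beside the 81.9% of all genes that passed between fractions. Of 32 adhesion machinery genes, the linkers from integrins to actin, 17 were higher in PSCs and 14 in organoids, where 41.6% of all genes were higher and 40.3% lower. The kindlins, integrin activators, were exchanged: Fermt1 was lower in PSCs by a log2 difference of -9.44 (SE 0.146, adjusted p = 5.518e-18 by edgeR) and Fermt2 higher by 5.08 (SE 0.0929, adjusted p = 2.511e-17). Of 24 integrin ligand genes 21 were tested, and 19 were higher in PSCs and 2 in organoids, with the median log2 difference at 6.29 against -0.006 over all genes. Col1a1, Col1a2 and Col3a1 of this list are also fibroblast markers, so the list is not independent of the markers that fitted the fraction labels. Of 23 basement membrane and other laminin receptor genes 21 were tested, with 14 higher in PSCs and 5 in organoids.

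The main question of the design for the organoids was whether they differed when the neighbouring PSCs lacked Egfr. Organoids grown with KO PSCs had less Itgb6 and Itgav mRNA, which together encode the integrin alphaV-beta6, and more Itga1 and Lamc1 mRNA. These were the 4 members that passed among 22 tested (2 higher, 2 lower), while 10.3% of all genes tested passed (4.28% higher, 6.05% lower). The median log2 difference of the 22 was -0.201, against -0.009 over all genes tested. Each KO library was compared with the WT library of the same organoid line and PSC parent.

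Itgb6 stood at 16.7, 12.7, 28.4 and 21.2 TPM in the WT libraries of T6-LOH with PSC4, T12-LOH, T69A and T6-LOH with PSC5. In the KO libraries it was 13.2 (A3) and 14.9 (B4) with T6-LOH, 9.84 and 9.96 with T12-LOH, and 19.0 (B4) with T69A. With T6-LOH and PSC5 it was 14.0 (C5) and 13.3 (D4). It was lower in 7 of 7 KO libraries than in the matching WT library, although the ranges of all WT and all KO libraries overlapped. The log2 difference was -0.44 (SE 0.0687, adjusted p = 0.00473 by edgeR), and the call held in 16 of 17 alternative fits.

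Itgav, its only alpha partner, stood at 34.4, 74.0, 52.1 and 49.1 TPM in the WT libraries in the same order. The KO libraries had 25.6 and 30.2 (T6-LOH with A3 and B4), 63.9 and 65.9 (T12-LOH), 44.7 (T69A with B4), and 33.0 and 29.6 TPM (T6-LOH with C5 and D4). It was lower in 7 of 7, by a log2 difference of -0.35 (SE 0.0879, adjusted p = 0.03419 by edgeR). The call held in 7 of 17 alternatives, among them the fits without the WT library of T6-LOH with PSC4 or without a B4 library of T6-LOH or T12-LOH, and was lost without any of the other 8 libraries.

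Itga1, the collagen receptor subunit, was higher in 7 of 7 KO libraries. Its WT libraries had 9.11, 21.0, 11.0 and 11.1 TPM. The KO libraries had 12.3 and 11.1, then 23.4 and 33.8, then 14.8, then 14.6 and 14.9 TPM. The log2 difference was 0.43 (SE 0.0896, adjusted p = 0.01923 by edgeR), and it held in 14 of 17 alternatives. It was lost without the WT library of T12-LOH, without that of T6-LOH with PSC5, and without the co-culture block. A transcript with a retained intron, Itga1-206, held 0 to 39.75% of the Itga1 TPM in organoid libraries (median 23.7%). Its part in the difference was not tested.

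Lamc1, the gamma chain, had the smallest difference of the 4, at 0.16 on the log2 scale (SE 0.0426, adjusted p = 0.03673 by edgeR). In CPM the WT libraries had 326, 141, 346 and 298 and the KO libraries 327 and 339, 158 and 158, 421, and 342 and 327, so that 7 of 7 were higher. In TPM only 5 of 7 were higher, since both KO libraries of T6-LOH with PSC4 (66.1 and 67.1 TPM) lay below their WT library (68.0), and the call held in 8 of 17 alternatives. It was lost on leaving out any library of T69A or of T6-LOH with PSC5, or the WT or A3 library of T12-LOH.

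**Figure D3:**
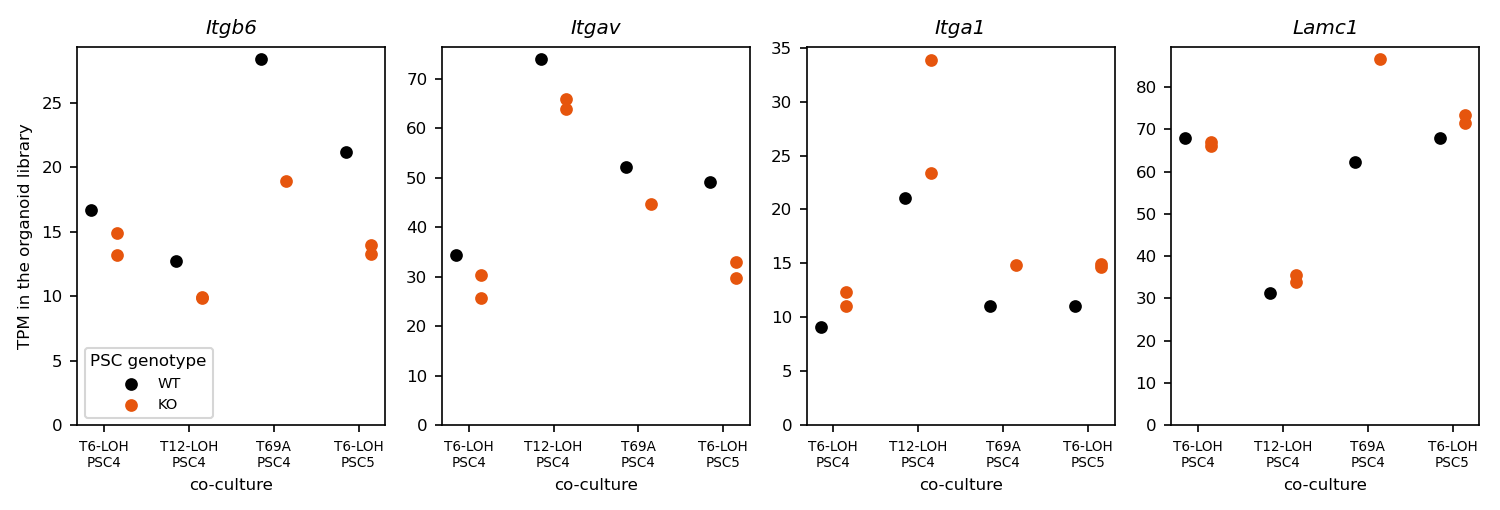
TPM of Itgb6, Itgav, Itga1 and Lamc1 in the 11 organoid libraries, by co-culture (x) and by genotype of the neighbouring PSCs (black WT, orange KO), 1 point per library. In every co-culture the orange points lie below the black one for Itgb6 and Itgav and above it for Itga1, while Lamc1 falls slightly below it in T6-LOH with PSC4.

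Leaving out single libraries changed the count of 4 calls. It was 1 without the WT library of T6-LOH with PSC5, where Itgb6 alone passed, and 2 without the WT library of T69A or without the KO library of T69A with B4, T12-LOH with A3 or T6-LOH with D4. No member, and no gene of any kind, passed when the co-culture block was left out. DESeq2 called 9 members, adding Itga2, Itga6, Itgb1, Lama3 and Lama5, all lower, where 10.5% of all genes passed. Fibroblast markers moved with the groups: their share was 0.0775% ± 0.0600 (SD, n = 4) of the PSC level in organoid libraries grown with WT PSCs and 0.0185% ± 0.0218 (SD, n = 7) in those grown with KO PSCs. The part of PSC RNA in the differences of the members was not tested.

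Itga6, Itgb4 and Itga5 also lay lower in 7 of 7 KO libraries without passing the test. For Itga6 the log2 difference was -0.18 (adjusted p = 0.06418 by edgeR), for Itgb4 -0.11 (adjusted p = 0.1036) and for Itga5 -0.85 (adjusted p = 0.1021). Of the partners, Itgb1 had a difference of -0.24 (adjusted p = 0.09958) and Lama5 one of -0.19 (adjusted p = 0.05868).

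Since Itgb6 and Itgav fell together, their promoter windows are shown, from RefSeq on GRCm38.p6, with 250 bases before and 50 after a gene start, 5′ to 3′ on the gene's strand. Capitals mark the GC box GGGCGG (or CCGCCC on the other strand), the binding motif of Sp factors. Of all 32851 mouse promoter windows of this length 35.66% hold it, as do those of 11 of the 23 members with a window. Itgav lies at chr2:83724147-83724446 on the plus strand, and the windows of Itgb6 at chr2:60722554-60722853 and chr2:60673644-60673943 on the minus strand.
Itgav: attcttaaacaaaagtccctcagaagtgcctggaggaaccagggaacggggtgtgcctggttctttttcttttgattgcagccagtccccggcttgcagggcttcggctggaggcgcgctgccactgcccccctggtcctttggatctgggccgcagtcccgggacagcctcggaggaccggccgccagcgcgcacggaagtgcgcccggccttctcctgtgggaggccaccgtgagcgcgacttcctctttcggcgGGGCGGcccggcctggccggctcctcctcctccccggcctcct
Itgb6, first window: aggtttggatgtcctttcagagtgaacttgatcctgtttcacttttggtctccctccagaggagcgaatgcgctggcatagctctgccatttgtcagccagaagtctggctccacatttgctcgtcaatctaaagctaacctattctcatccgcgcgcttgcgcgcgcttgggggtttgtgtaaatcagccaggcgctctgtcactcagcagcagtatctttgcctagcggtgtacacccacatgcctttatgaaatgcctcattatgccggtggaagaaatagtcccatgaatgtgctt
Itgb6, second window: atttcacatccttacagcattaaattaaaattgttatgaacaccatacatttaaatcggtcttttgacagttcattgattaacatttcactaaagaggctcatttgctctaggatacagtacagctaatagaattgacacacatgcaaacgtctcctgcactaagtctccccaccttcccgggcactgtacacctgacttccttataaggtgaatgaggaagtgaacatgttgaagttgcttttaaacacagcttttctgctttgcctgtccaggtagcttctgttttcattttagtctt
The Itgav window has 1 GC box and 67.3% G and C, and the Itgb6 windows have none and 50.3 and 38.3%. None of the 3 windows holds the AP-1 motif TGANTCA, which is in 7.81% of all windows, the TEAD motif GGAATG or its complement CATTCC (14.66%), or TATAAA or its complement TTTATA (13.62%). A match or its absence describes these letters only.

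The other pathway lists in organoids with KO PSCs are given beside the 10.3% of all genes that passed there. Of 32 adhesion machinery genes 1 was higher and 6 were lower, among them Tns4, an epithelial tensin that binds integrin tails (log2 difference -0.44, SE 0.0678, adjusted p = 0.005093 by edgeR), and Lims2, a partner of integrin-linked kinase (-0.68, SE 0.131, adjusted p = 0.0106). Of 15 integrin ligands tested 4 were lower and none higher. They were Tgfb1, whose latent form alphaV-beta6 binds (-0.32, SE 0.0828, adjusted p = 0.03327), and Col1a1, Col3a1 and Tnc (-1.45, -2.74 and -1.59), matrix genes of fibroblasts. Col1a1 and Col3a1 are themselves on the fibroblast marker list, so they are not independent of the marker shares given above. The part of PSC RNA in these differences was not tested. Of 17 basement membrane and receptor genes tested 3 were lower and 1 higher, including Smoc1 (-0.61, adjusted p = 0.01232) and Nid1, the linker of laminin to collagen IV (0.39, SE 0.0962, adjusted p = 0.03558).

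In the PSCs themselves, no member passed between KO and WT. None of 28 members tested had an adjusted p under 0.05 by edgeR, and 0.0638% of all genes did. At an unadjusted p under 0.05 there were 5: Itga1 (log2 difference 0.36), Itga8 (1.95), Itga2 (-0.71), Itga6 (-0.33) and Itgb7 (-1.0). DESeq2 called 3 of them, Itga8 higher and Itga2 and Itgb7 lower, where 3.35% of all genes passed. Itga2 was lower in 7 of 8 KO libraries, with 1.17 to 4.94 TPM over all PSC libraries. Itga1 was higher in 7 of 8, and Lama5 too was higher in 7 of 8 without passing. Itga8 was higher in 8 of 8 KO libraries. Itgb7 was lower in 8 of 8 by CPM and in 7 of 8 by TPM. The 8 KO libraries share 4 WT libraries, so these counts do not rest on separate comparisons.

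The KO effect did not differ between PSC parents for any of 28 members (interaction test in edgeR, no gene of any kind passing, 0%), and 3 members had an unadjusted p under 0.05. It did not differ between PSCs and organoids for any of 29 members (0.539% of all genes passed), and 6 had an unadjusted p under 0.05. These tests have few libraries, and a p that misses the threshold does not show that the effects were equal. The smallest adjusted p in the second test was that of Itgb7 (0.08704, difference -1.24), which was -1.0 in PSCs, followed by Lamc1 (0.09795, difference -0.32). DESeq2 called these 2 genes, where 3.03% of all genes passed.

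Differences between individual PSC lines were larger. After genotype and co-culture, PSC libraries of one line correlated at 0.726 over all genes (consensus correlation in limma), against 0.0376 for organoid libraries grown with one PSC line. Line B4 against the WT line Rosa of the same parent, over 3 organoid partners each, called 17 of 29 members (8 higher, 9 lower), in a contrast where 50.2% of all genes passed (25.2% higher, 25% lower). Line A3 against the same Rosa libraries called 4 (1 higher, 3 lower), where 7.41% of all genes passed (3.35% higher, 4.06% lower). The comparisons share their Rosa libraries, and A3 and B4 are each 1 line, so the line and the genotype cannot be told apart.

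Of the members at 1 TPM or more in PSCs, Itga9 had the largest log2 difference between B4 and Rosa. Its PSC mean (1.686 TPM) met that level only through B4, and Itga4, under that level, had a larger difference in the other direction. It stood at 6.78, 2.23 and 7.64 TPM in B4 with T6-LOH, T12-LOH and T69A, and at 0.415, 0.214 and 0.358 in Rosa. In A3 it was 0.717, 0.139 and 0.372 TPM, and in the PSC5 lines it was 0.209 (Rosa), 0.690 (C5) and 0.478 (D4). All 3 B4 libraries lay above the other 9. The log2 difference of B4 from Rosa was 3.80 (SE 0.214, adjusted p = 2.493e-05 by edgeR), and that of A3 was -0.88 (adjusted p = 0.08283). A3 and B4 differed from each other by -4.69 (SE 0.233, adjusted p = 2.385e-05), where 49% of all genes passed.

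Itgb3, the beta subunit of the vitronectin receptor, was likewise highest in B4, while the order of the other lines differed. It had 13.6, 7.31 and 22.8 TPM in B4 against 3.13, 1.47 and 3.82 in Rosa and 3.96, 0.965 and 4.23 in A3. The PSC5 lines had 6.47, 1.64 and 5.68 TPM, so every B4 library lay above all others. Its log2 difference from Rosa was 2.24 (SE 0.193, adjusted p = 0.0001665 by edgeR).

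The laminin alpha chains of B4 were shifted from Lama4 to Lama5. Lama4 stood at 0.290, 4.90 and 0.581 TPM in B4, at 13.5, 12.7 and 17.5 in Rosa and at 17.5, 22.1 and 28.5 in A3. All B4 libraries were below the other PSC4 libraries, but the PSC5 KO line C5 had 3.87 TPM, between the B4 values, and its relatives Rosa and D4 had 26.4 and 17.5. The log2 difference of B4 from Rosa was -3.36 (SE 0.856, adjusted p = 0.02229 by edgeR), a call that held in 7 of 12 alternatives. It was lost with no filter on low counts and without the Rosa or B4 library of T6-LOH or of T69A. Lama5 was 59.7, 68.9 and 67.2 TPM in B4 and 42.3, 19.0 and 34.8 in Rosa, above all other PSC libraries, with a log2 difference of 0.98 (SE 0.238, adjusted p = 0.01634 by edgeR) that was lost without the Rosa library of T12-LOH or of T69A.

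Itga4 and Itgb1 were lower in B4. Itga4 had 0.0145, 0.0222 and 0.00842 TPM against 0.189, 0.357 and 0.313 in Rosa, a log2 difference of -4.24 (SE 0.387, adjusted p = 0.0001307 by edgeR) at a level near 0. C5 and D4 also had little (0.0428 and 0.0236 TPM), against 0.188 in the PSC5 Rosa line. Itgb1 had 578, 479 and 456 TPM in B4 and 749, 544 and 702 in Rosa (log2 difference -0.49, SE 0.0959, adjusted p = 0.003774 by edgeR).

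The other members called in B4 were Itga8, Lama3, Itgb2, Itga2b and Lamb2, higher by log2 differences of 0.39 to 2.19, and Itga11, Itgb7, Itga2, Itga3, Itga6 and Itgav, lower by -1.89 to -0.33. Among these, the call of Itga3 held in only 3 of 12 alternatives, namely DESeq2 and the fits without the Rosa or the B4 library of T12-LOH. Those of Itga2b and Itgb7 held in 8 and that of Lamb2 in 9. Itgb2 was 3.03, 8.16 and 3.49 TPM in B4 against 0.377, 2.95 and 1.03 in Rosa, with Ptprc at 0 in every PSC library. Lama3 was 1.97, 1.01 and 5.03 TPM in B4 against 0.672, 0.436 and 0.875 in Rosa, and its highest value fell in the library with the highest epithelial marker share (0.926%). The part of organoid RNA in that value was not tested. Without the WT library of T69A, 11 members passed in B4, and Lama3 was among those lost. Of the 25 members at 1 TPM or more in PSCs, B4 was above all other PSC libraries for 3 (Itga9, Itgb3 and Lama5) and below them for none. The same share over all genes was not taken, so this count does not set the members apart from other genes. Itga9 met the 1 TPM level only through B4. Under that level, B4 lay above all other PSC libraries for Itgal and below them for Itga4.

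**Figure D4:**
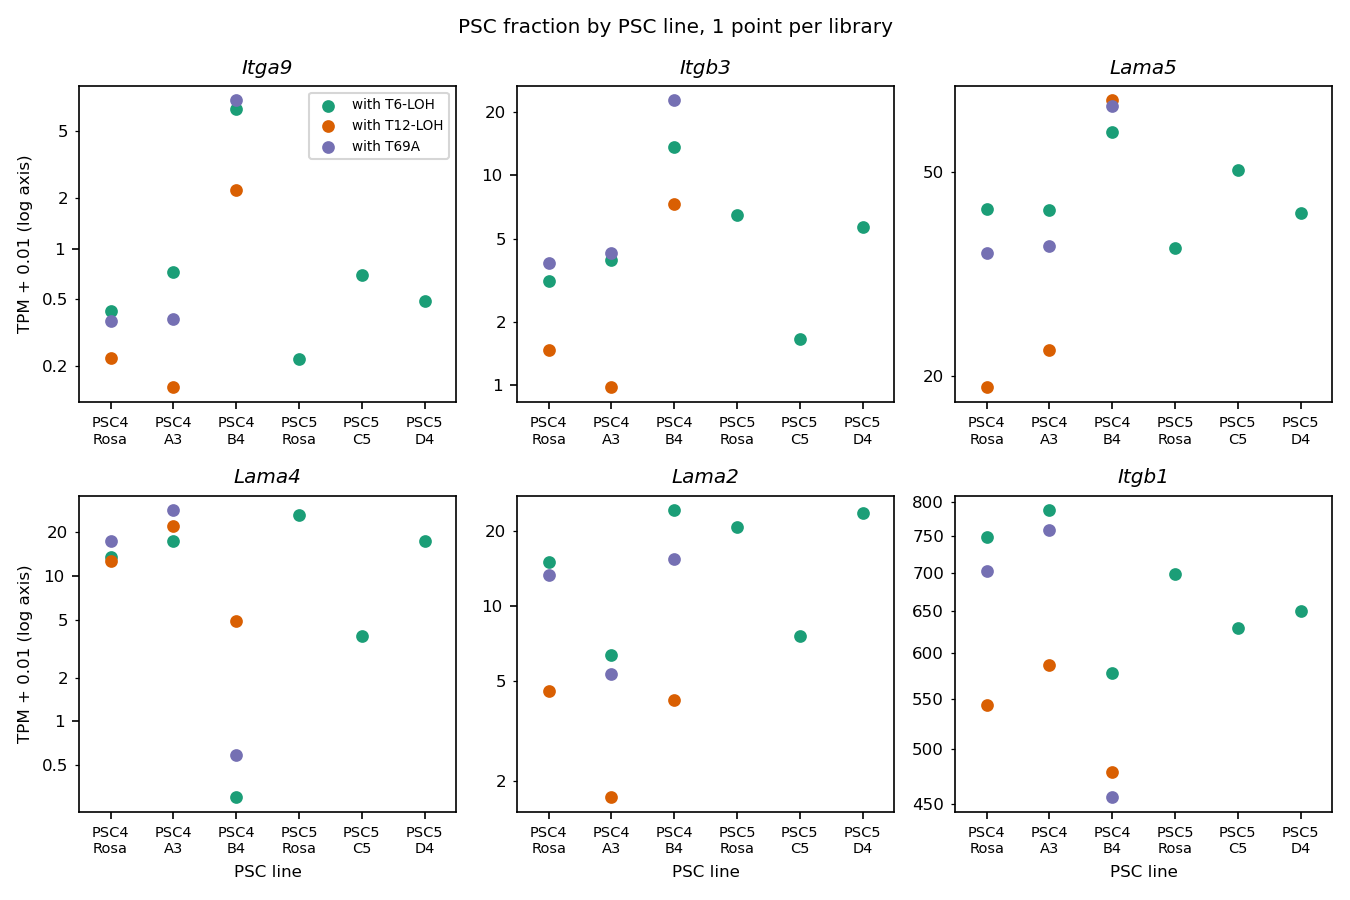
TPM + 0.01 on log axes of 6 genes in the 12 PSC libraries, by PSC line (x) and coloured by the organoid line of the co-culture, 1 point per library. Itga9, Itgb3 and Lama5 are highest in the 3 B4 points, Lama4 is low in B4 and C5, and the T12-LOH points of Lama2 and Itgb1 lie low within each PSC4 line except for Itgb1 in B4.

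Itga9 had the largest difference among members at 1 TPM or more, a level it met only through B4. Its promoter window is shown too (RefSeq, GRCm38.p6, chr9:118711442-118711741, plus strand), with the AP-1 motif TGANTCA in capitals. The motif, read the same on both strands, lies in 3 of the 23 members' genes, namely Itga3, Itga9 and Itgax.
Itga9: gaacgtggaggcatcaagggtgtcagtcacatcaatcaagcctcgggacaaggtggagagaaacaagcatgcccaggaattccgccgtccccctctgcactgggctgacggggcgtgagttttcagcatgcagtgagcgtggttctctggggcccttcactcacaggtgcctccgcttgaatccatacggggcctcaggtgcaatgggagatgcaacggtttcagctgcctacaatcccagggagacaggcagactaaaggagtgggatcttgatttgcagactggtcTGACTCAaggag
The window holds 1 match, near its 3′ end, and 56.7% G and C.

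In line A3, Lama2, the alpha chain of muscle and nerve laminin, was lower than in Rosa. It had 6.35, 1.71 and 5.34 TPM with T6-LOH, T12-LOH and T69A, against 15.0, 4.55 and 13.3 in Rosa and 24.3, 4.19 and 15.4 in B4. The log2 difference from Rosa was -1.23 (SE 0.142, adjusted p = 0.005706 by edgeR), and A3 lay below Rosa with each partner. In PSC5, C5 had 7.59 TPM against 20.7 in Rosa and 23.5 in D4. Itga2 and Itga7 were also lower in A3 (-1.0 and -0.74, adjusted p = 0.01756 and 0.0271) and Itgb5 was higher (0.34, adjusted p = 0.04372). Of 12 alternatives the call of Lama2 held in 11, those of Itga2 and Itga7 in 7 and that of Itgb5 in 6. Without the T6-LOH library of A3 no member passed, and 1 passed without either other A3 library or without the Rosa library of T69A or T6-LOH. Without the B4 library of T12-LOH, which only lends spread to this fit, 7 passed.

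In B4 against Rosa, 10 of 32 adhesion machinery genes were higher and 6 lower, a share close to the 50.2% of all genes that passed there. Of 20 basement membrane genes 8 were higher and 5 lower. Col4a1 and Col4a2, the main collagen IV chains, were higher in B4 by log2 differences of 1.39 (SE 0.0634) and 0.55 (SE 0.0696), with adjusted p of 1.421e-05 and 0.0004994 by edgeR. In A3 against Rosa the same genes were lower by -0.65 (SE 0.0627) and -0.47 (SE 0.0697), with adjusted p of 0.00239 and 0.01081. Tnc, the ligand of Itga9, was lower in B4 (-1.54, SE 0.129, adjusted p = 9.22e-05) and in A3 (-0.76, SE 0.127, adjusted p = 0.01596).

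The parents PSC4 and PSC5, compared with T6-LOH as partner, differed in none of 28 members (edgeR), where 0.454% of all genes passed, and 4 had an unadjusted p under 0.05. Itga2 was nearest, at 4.47, 4.94 and 3.68 TPM in the PSC5 lines and 2.72, 1.20 and 1.19 in the PSC4 lines, with no overlap (log2 difference 1.42, SE 0.261, adjusted p = 0.05125). It passed with DESeq2, as did Itgb7, and with no filter on low counts, where 5.9 and 0.276% of all genes passed. Without the PSC5 Rosa library 1 member passed. T6-LOH organoids next to PSC5 or PSC4 differed in none of 22 members (0.545% of all genes passed), with 4 at an unadjusted p under 0.05. There DESeq2 called Itga3, and 2.52% of all genes passed with it.

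The PSC profile also differed with the organoid partner. PSC4 cells grown with T12-LOH had less Lama2, Lamb2, Itga11 and Itgb3 than the same lines grown with T6-LOH, and more Itgb2. Of 29 members 4 were higher and 9 lower, while 17.8% of all genes passed (8.53% higher, 9.25% lower). Sorted by role, the lower members were the laminin chains Lama2, Lamb2 and Lamc1, the collagen receptor subunits Itga1, Itga10 and Itga11, and Itga9, Itgav and Itgb3, while Itga4, Itgb2, Itgb7 and Itgb8 were higher. Some of these calls were not stable. That of Itga4 held in only 2 of 12 alternatives, upper-quartile scaling and the fit without the B4 library with T69A, and was lost with DESeq2. Those of Itga1 and Lamc1 held in 4 and 5, that of Itgav in 6, and those of Itga10 and Itgb7 in 8.

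Lama2 had 4.55, 1.71 and 4.19 TPM in Rosa, A3 and B4 with T12-LOH, against 15.0, 6.35 and 24.3 with T6-LOH. All 3 T12-LOH values lay below the T6-LOH values (log2 difference -1.91, SE 0.145, adjusted p = 0.0006825 by edgeR). Lamb2 had 54.2, 49.2 and 64.4 TPM against 105, 128 and 137, again with no overlap (-1.10, SE 0.114, adjusted p = 0.001524). Itga11 had 0.359, 0.263 and 0.0550 TPM against 1.96, 3.03 and 0.481 (-2.87, SE 0.361, adjusted p = 0.002719).

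Among the members higher with T12-LOH, Itgb2 had 2.95, 3.97 and 8.16 TPM against 0.377, 0.501 and 3.03 (2.38, SE 0.375, adjusted p = 0.006913). Itgb8 had 4.91, 8.78 and 9.81 TPM against 2.50, 3.65 and 1.21 (1.9, SE 0.422, adjusted p = 0.03419). The calls of Lama2, Lamb2, Itga11, Itga9, Itgb2 and Itgb3 held in 12 of 12 alternatives, whereas that of Itgb8 held in 4, those without a B4 or Rosa library of T12-LOH among them. The count fell to 6 without the Rosa library with T6-LOH and to 7 without the A3 library with T6-LOH or with T12-LOH. With T69A as partner in place of T6-LOH no member passed (4.31% of all genes did), 4 had an unadjusted p under 0.05, and 2 passed without the B4 library with T12-LOH.

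Matrix genes outside the member list were also called next to T12-LOH, where 17.8% of all genes passed. Of 21 integrin ligands tested 11 were lower and 2 higher, with Fbn1, the fibrillin of elastic microfibrils, at a log2 difference of -1.46 (SE 0.0765, adjusted p = 0.0001967 by edgeR) and Fn1, fibronectin, at -1.57 (SE 0.11, adjusted p = 0.0003734). Of 20 basement membrane and receptor genes 12 were lower and 1 higher, with Col4a1 at -0.72 (SE 0.0627, adjusted p = 0.0008714). Of 32 adhesion machinery genes 11 were lower and 1 higher, with Vcl, the actin linker vinculin, at -0.97 (SE 0.103, adjusted p = 0.001562). Each organoid line was one line, and whether these co-cultures were set up or sequenced at another time is not given.

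The organoid lines differed from one another in 11 to 16 of the 22 members tested, in contrasts where more than 55% of all genes passed. T12-LOH against T6-LOH, both with PSC4, called 16 of 22 members (9 higher, 7 lower), where 63.1% of all genes passed (31.4% higher, 31.7% lower). T69A against T6-LOH called 11 (7 higher, 4 lower), where 55.3% of all genes passed (27.6% higher, 27.7% lower). T69A against T12-LOH called 16 (8 higher, 8 lower), where 56.6% passed (27.8% higher, 28.8% lower). The contrasts share libraries and are given side by side. In T12-LOH the integrins leaned higher (9 higher, 4 lower of 16) and the laminin chains did not (0 higher, 3 lower of 6).

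Among RGD receptors, Itga5 had 11.9, 9.05 and 10.3 TPM in T12-LOH (Rosa, A3 and B4 as neighbours), 3.57, 2.19 and 3.12 in T6-LOH with PSC4, and 0.640 and 0.560 in T69A. The 3 lines did not overlap, T6-LOH with PSC5 included (6.87, 2.05 and 1.57 TPM). The log2 differences from T6-LOH were 1.86 (SE 0.361, adjusted p = 0.002747 by edgeR) for T12-LOH and -2.23 (SE 0.516, adjusted p = 0.007992) for T69A. The second call was lost without the WT library of T69A. Itgb3 was ordered likewise, at 3.80, 3.45 and 4.04 TPM in T12-LOH, 0.258 to 0.763 over the 6 libraries of T6-LOH, and 0.210 and 0.121 in T69A. Its log2 differences from T6-LOH were 3.27 (SE 0.211, adjusted p = 4.742e-08) and -1.32 (SE 0.302, adjusted p = 0.002505).

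Itgb6 was ordered in the opposite direction. It was highest in T69A (28.4 and 19.0 TPM), at 16.7, 13.2 and 14.9 in T6-LOH with PSC4, and lowest in T12-LOH (12.7, 9.84 and 9.96), and its log2 differences from T6-LOH were 0.62 (SE 0.0991, adjusted p = 0.0001843 by edgeR) for T69A and -0.62 (SE 0.0914, adjusted p = 6.314e-05) for T12-LOH. Itgav was higher than in T6-LOH in both, by 1.17 (SE 0.116, adjusted p = 8.723e-06) in T12-LOH and 0.54 (SE 0.128, adjusted p = 0.00465) in T69A, the second of which was lost without the KO library of T69A.

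Among collagen and laminin receptors, Itga2 had 151, 121 and 140 TPM in T12-LOH, 64.3, 48.2 and 65.2 in T6-LOH with PSC4, and 86.2 and 67.7 in T69A. T12-LOH lay above all other libraries (log2 difference from T6-LOH 1.17, SE 0.127, adjusted p = 2.653e-05 by edgeR). Itgb1 was 319, 300 and 331 TPM in T12-LOH and 139 to 229 in all other organoid libraries (0.97, SE 0.115, adjusted p = 3.806e-05). Itga3 was 326, 353 and 351 TPM in T12-LOH and 226 to 286 elsewhere (0.50, SE 0.0553, adjusted p = 5.061e-06). Itgb4 was highest in T69A, at 104 and 92.5 TPM, against 71.3 to 81.3 in T6-LOH and 62.5 to 70.1 in T12-LOH, with no overlap between lines.

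The laminin chains Lamc1, Lama5 and Lamb2 were lowest in T12-LOH. Lamc1 had 31.2, 35.6 and 33.9 TPM there, against 62.4 to 86.8 in the other 8 organoid libraries, a log2 difference from T6-LOH of -1.12 (SE 0.0556, adjusted p = 4.874e-09 by edgeR). Lama5 had 110, 91.4 and 87.9 TPM against 143 to 206 elsewhere (-0.85, SE 0.0763, adjusted p = 8.421e-07), and Lamb2 had 43.3, 39.8 and 35.9 TPM against 54.0 to 69.1 (-0.85, SE 0.0828, adjusted p = 1.72e-06). Lama3 and Lamb3 did not pass between lines (adjusted p from 0.1841 to 0.7746 for Lama3, and log2 differences of -0.03 and 0.07 for Lamb3 in T12-LOH against T6-LOH and T69A against T12-LOH).

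The leukocyte subunits Itgb7 and Itgb2 were highest in T6-LOH. Itgb7 stood at 5.35 to 8.51 TPM over 6 libraries, against 0.955 to 1.80 in T12-LOH and 2.27 in both T69A libraries, with log2 differences from T6-LOH of -2.11 (SE 0.232, adjusted p = 1.046e-05 by edgeR) and -1.37 (SE 0.259, adjusted p = 0.0008987). Itgb2 stood at 1.05 to 2.27 TPM in T6-LOH, 0.407 to 0.641 in T12-LOH, and 0.666 and 0.733 in T69A. Of the immune markers, Csf1r and Ptprc moved with them. The 8 immune markers summed to 2.09 to 5.12 TPM in T6-LOH, 0.778 to 1.30 in T12-LOH, and 0.130 and 0.721 in T69A. Csf1r, the CSF1 receptor of macrophages, made up most of the T6-LOH sum, at 1.31 to 4.44 TPM, against at most 0.157 TPM in the other lines (log2 differences from T6-LOH of -5.44, adjusted p = 2.727e-07, and -4.48, adjusted p = 5.568e-06). Ptprc, the CD45 gene of all leukocytes, stood at 0.385 to 0.735 TPM in T6-LOH (-1.72, adjusted p = 0.001756 for T12-LOH, and -3.5, adjusted p = 0.0002212 for T69A). Cd3e was at 0 in all 11 organoid libraries and Adgre1 reached at most 0.0417 TPM. Itgam and Cd79a did not share the order of Itgb7 and Itgb2. Itgam stood at 0.0564 to 0.124 TPM in T6-LOH, 0.126 to 0.444 in T12-LOH and at most 0.0267 in T69A. Cd79a had medians of 0.250, 0.295 and 0.292 TPM in T6-LOH, T12-LOH and T69A. The part of immune cells in the Itgb7 and Itgb2 levels was not tested.

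**Figure D5:**
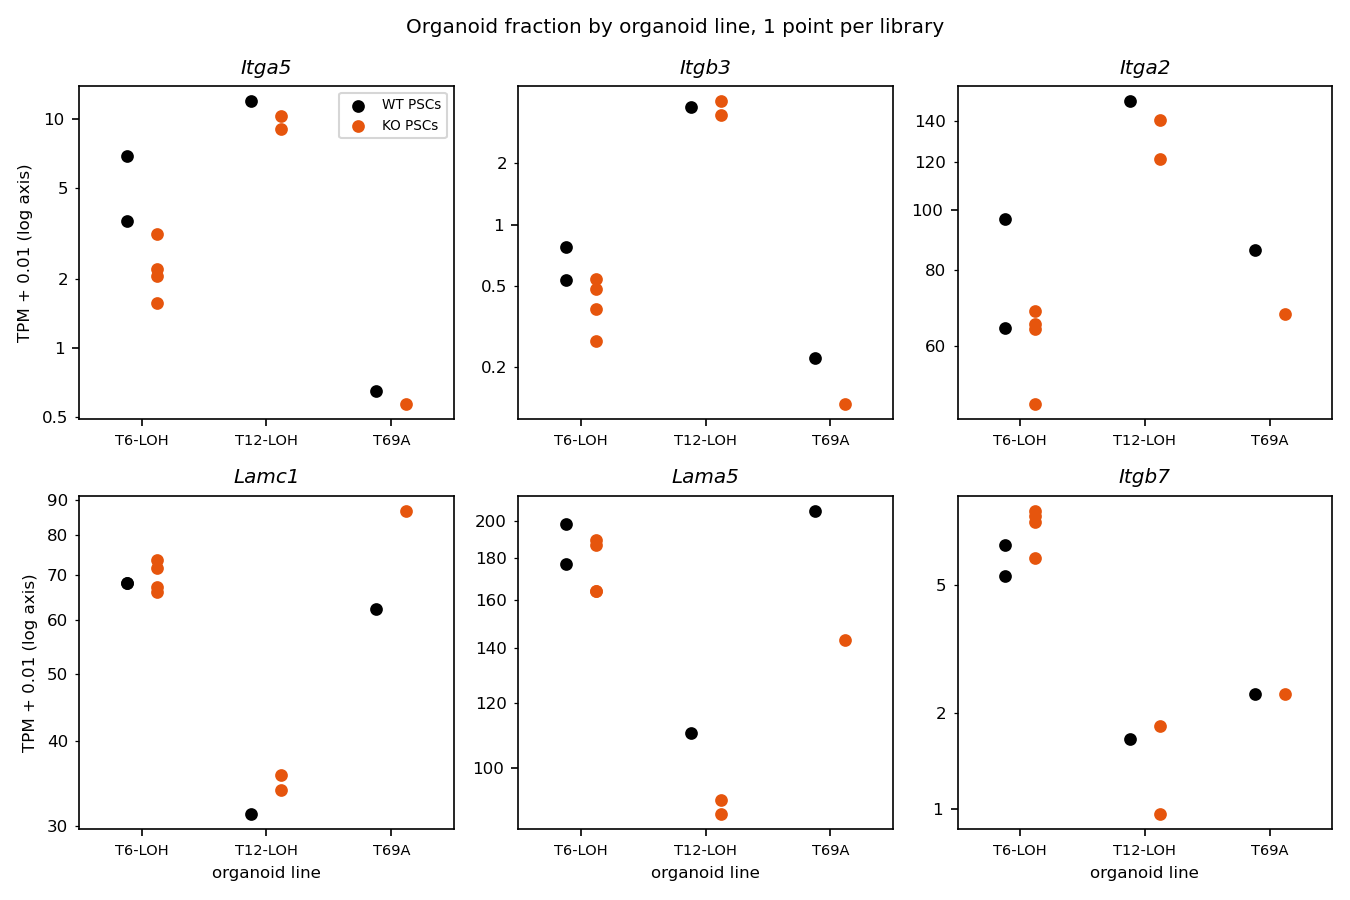
TPM + 0.01 on log axes of 6 genes in the 11 organoid libraries, by organoid line (x) and genotype of the neighbouring PSCs (black WT, orange KO), 1 point per library. T12-LOH is highest for Itga5, Itgb3 and Itga2 and lowest for Lamc1, Lama5 and Itgb7, and T69A is lowest for Itga5 and Itgb3.

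Of the adhesion machinery in T12-LOH against T6-LOH, 17 of 32 genes were higher and 4 lower, so that 21 passed, a share close to the 63.1% of all genes, of which 31.4% were higher and 31.7% lower. Fermt2, the kindlin of mesenchymal cells, was higher by a log2 difference of 4.55 (SE 0.164, adjusted p = 4.606e-10 by edgeR) and Ptk2, focal adhesion kinase, lower by -1.13 (SE 0.0618, adjusted p = 1.095e-08). Among laminin receptors that are not integrins, Dag1, dystroglycan, and Bcam were lower by -1.38 (SE 0.069, adjusted p = 5.27e-09) and -1.78 (SE 0.108, adjusted p = 1.491e-07). Col4a6, a basement membrane collagen chain, was lower by -7.92 (SE 0.38, adjusted p = 9.695e-09), a fitted value that depends on the prior count where a gene is near 0. Fibroblast marker shares in the organoid libraries were 0.0101 to 0.0698% in T12-LOH, 0 to 0.0490% in T6-LOH and 0.0625 and 0.164% in T69A.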

How the data were processed

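The members and the other gene lists were chosen with earlier results of these data known. For every library the authors deposited Salmon estimated counts and TPM per transcript, made with Salmon 1.9.0 and GRCm39 (mm39), per the submitters' processing notes (strandedness, read length and annotation: not given in the sources used here). Per the labels' protocols, RNA was extracted from TRIzol by PureLink columns. Of 117135 transcripts, 115973 (99.01%) matched GENCODE M21 identifiers, used for gene names only. Unmatched transcripts held 0.364 to 0.443% of counts and were left out.

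Estimated counts were summed per gene and rounded, and deposited TPM were summed per gene for levels between genes. Tests used the robust quasi-likelihood fit of edgeR 4.0.16 (R 4.3.3; TMM, filterByExpr), with Benjamini-Hochberg adjustment over all genes tested and a threshold of 0.05. In that filter 28 of 35 members passed for PSCs, 22 for organoids and 29 for the PSC4 lines and for the fractions; a member passes through the group in which it is high. Fits left 7 (PSC), 6 (organoid), 4 (PSC4 lines) and 13 (all libraries) residual degrees of freedom, with co-culture, or organoid and PSC line, as blocks. Each log2 difference over the root of its F statistic gives the SE printed beside it. Every pair of libraries of a group differed by more than sampling noise (lowest chi-square per degree of freedom 10.2). The tests were tested on simulated data. Alternatives were DESeq2 1.42.0, upper-quartile scaling, no filter, no block, limma 3.58.1 with PSC line as a random effect, and leaving out libraries. The 35 members were open to naming in every comparison, with full statistics for those past the threshold and their partners, and up to 4 genes per other list by smallest p. Marker shares used markers of at least 50 TPM in their own fraction.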

Additional observations from a re-analysis of the deposited data

Results flagged for a closer look

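In groups of 4 to 10 libraries, 84 levels were examined for a single library far from the others of its group, and 8 stood apart, where chance gives about 1 in 20. In 3 of the 8 the library was the organoid library of T12-LOH with WT PSCs, the only T12-LOH library of its group. It had 21.02 TPM of Itga1 against 9.11 to 11.08 in the other WT libraries, 3.798 TPM of Itgb3 against 0.21 to 0.763, and 31.23 TPM of Lamc1 against 62.38 to 68.01. The T12-LOH libraries with KO PSCs had like levels of these genes, as given above. Among organoids with KO PSCs, the only T69A library had 92.45 TPM of Itgb4 against 62.5 to 75.43 in the others.

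Among KO PSC libraries, line C5 had 49.22 TPM of Itga6 against 28.11 to 37.11. Line D4 had 7.977 TPM of Itga8 against 0.46 to 3.155. Line B4 with T12-LOH had 8.164 TPM of Itgb2 against 0.501 to 3.967, and line B4 with T69A had 5.026 TPM of Lama3 against 0.155 to 1.973.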

How the results depend on the processing

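No call of a named member changed direction in any alternative. DESeq2 called more members than edgeR in PSC KO against WT (3 against 0), in organoids with KO PSCs (9 against 4), in PSC5 against PSC4 (2), in T6-LOH organoids with PSC5 (1), and in the differences of KO effect between parents (1, Itga5) and between fractions (2). Of all genes, in the same order, 3.35, 10.5, 5.9, 2.52, 0.468 and 3.03% passed with DESeq2. With edgeR 0.0638, 10.3, 0.454, 0.545, 0 and 0.539% passed. DESeq2 also added members in the fractions (31 against 28: Itgb2, Itgae and Itgam), A3 against Rosa (6 against 4: Itga6 and Itga8), B4 against Rosa (19 against 17: Itga10 and Itgal), A3 against B4 (18 against 15: Itgb8, Itgal and Itgax), T12-LOH as partner (16 against 13: Itga8, Itgb1, Lama3 and Lama5 added, Itga4 lost), and T12-LOH against T6-LOH and T69A against T12-LOH organoids (18 against 16: Itgax and Lamc3; 17 against 16: Itgam). Of all genes, in the same order, 67.3, 7.85, 37, 36.2, 14.3, 48.9 and 43.3% passed there with DESeq2. Without a filter on low counts, PSC5 against PSC4 gave 1, where 0.276% of all genes passed. In organoids with KO PSCs the count was 0 without the co-culture block and 2 without T69A, where 0 and 3.11% of all genes passed. The cause was not tested. Leaving out 1 library at a time gave counts of 0 to 0 (PSC KO), 1 to 6 (organoid KO), 28 to 30 (fractions), 0 to 7 (A3 against Rosa), 11 to 19 (B4 against Rosa), 10 to 17 (A3 against B4), 6 to 15 (T12-LOH as partner), 0 to 2 (T69A as partner), 0 to 1 (PSC5 against PSC4), 15 to 17, 8 to 12 and 15 to 18 (T12-LOH against T6-LOH, T69A against T6-LOH and T69A against T12-LOH organoids), 0 to 0 (T6-LOH organoids with PSC5), and 0 to 1 and 0 to 0 (KO effect between fractions and between parents). The last could not be fitted without the PSC5 WT library. Libraries were paired through their co-culture, organoid line or PSC line, which the fits of the report held as a block or term, since the replicate numbers of the groups are not shared. With each single culture as a block (22 libraries), the fractions again gave 28 calls, 18 higher and 10 lower. Genes near 0 in one fraction (Itga4, Itga8, Itga11, Itgb8, Lama2 and Lama4) are given by level, since their fitted differences depend on the prior count.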

Other observations

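The balance of subunit mRNA differed between the fractions, as a description with no test. The summed TPM of the alpha partners of beta1, without Itgav, came to 0.329 ± 0.0585 (SD, n = 12) of the Itgb1 TPM in PSCs and to 3.18 ± 0.565 (SD, n = 11) in organoids, where Itga6 also has Itgb4 as a partner. The ratio of Itga6 to Itgb4 in organoids was 3.19 ± 0.330 (SD, n = 11), between 2.68 and 3.67 over the libraries. These ratios count all transcripts of a gene, and the non-coding Itga6-203 held a median of 45.8% of the Itga6 TPM in organoids. The laminin beta chains summed to 146 ± 38.6 TPM in PSCs (SD, n = 12) and 145 ± 21.8 in organoids (SD, n = 11), with Lamb2 and Lamb3 leading in each. The alpha chains summed to 70.1 ± 15.9 and 208 ± 55.4 TPM. TPM of mRNA says nothing of how many protein pairs or trimers form.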
